A study of Mus musculus with 10 samples.

Results

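The CUT&Tag regions of mouse brain neural stem and progenitor cells (NSPCs) that the authors annotated to an exon, a 3' UTR, a 5' UTR or the first kilobases downstream of a gene numbered 3820 of 69418 regions, or 5.50%. They were chosen by that annotation alone, and no read count entered the choice. Exons held 1844 of them, 3' UTRs 1053, 5' UTRs 59 and downstream stretches 864. The cells were either Mina53-KO or WT, with no treatment in any group, and were profiled by CUT&Tag in 2 KO and 2 WT libraries and by RNA-seq in 3 KO and 3 WT libraries. Mina53 is the protein of Riox2, a JmjC-domain oxygenase, and the series title ties it to removal of the asymmetric dimethyl mark on arginine 3 of histone H4. The labels give neither the way the knockout was made, nor the age or brain region of the mice, nor the antibody, and they do not say whether libraries came from separate animals or cultures. The p-values therefore measure only the spread between these libraries, which may be technical.

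In CUT&Tag an antibody bound to chromatin guides a transposase that cuts and tags the DNA beside it, so reads pile up where the target lies. Asymmetric dimethylation of H4 arginine 3 is written mainly by PRMT1 and is known as a mark of active chromatin. Regions inside exons and at gene ends lie on the transcribed body of a gene or just past its end, away from the promoter, which makes them a place to set chromatin signal beside the RNA of a gene.

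Depth in regions was 4038765 and 3369232 reads in KO against 3125267 and 2913959 reads in WT, 6.03% and 6.09% against 5.61% and 6.10% of each library's total. RNA-seq libraries held 19922983 to 25939348 counts. Riox2 RNA measured 3.26, 3.78 and 3.70 CPM in KO against 20.0, 17.2 and 18.5 CPM in WT (log2 fold change -2.37, SE 0.15, adjusted p = 0.000324, edgeR), and no exon, UTR or downstream region was assigned to it. All 13 NSPC markers were measured and summed to 7815 to 8847 CPM in KO and 7327 to 7637 CPM in WT. None of 5 microglial markers, none of 4 endothelial markers, none of 4 erythroid markers and 1 of 4 fibroblast markers passed the count filter, and each of these lists summed to at most 0.582 CPM in KO and 0.760 CPM in WT. Markers of other neural cells were abundant. Those of the oligodendrocyte lineage summed to 2138 to 3357 CPM in KO and 2191 to 3518 CPM in WT, those of astrocytes to 1079 to 1267 CPM in KO and 1210 to 1500 CPM in WT, and those of neurons to 674 to 943 CPM in KO and 530 to 734 CPM in WT. Of 5 astrocyte markers, S100b (log2 fold change -1.52, adjusted p = 0.000412) and Agt (log2 fold change -1.54, adjusted p = 0.0128) were lower in KO by edgeR, and the part of such cells in the RNA results was not tested. The mitochondrial share of RNA counts was 2.68%, 2.65% and 4.64% in KO and 2.31%, 5.71% and 3.52% in WT, so each genotype held libraries of a lower and a higher share.

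The annotation places these regions well away from the start of the gene they were assigned to. The distance to the assigned start site ran from 3001 to 230421 bp with a median of 7990 bp, while the authors' promoter class reached 3000 bp. Of the exon regions, 1305 lay in an internal exon, 513 in the last exon, 23 in the exon of a single-exon transcript and 3 in a first exon. These positions refer to the transcript named in the annotation, so a last exon need not be the end of the gene. The median exon was number 6 of transcripts with a median of 11 exons. Downstream regions split into 257 within 1 kb, 282 at 1 to 2 kb and 325 at 2 to 3 kb. Regions were short, with a median length of 281 bp and a range of 200 to 2289 bp.

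The assigned gene was the one with the nearest start site and often was not the gene in whose exon the region lay. For 1163 of 1844 exon regions (63.1%) the file's exon belonged to the assigned gene, and for 681 it belonged to another gene. Of the 3' UTR regions, 253 of 1053 lay inside the assigned transcript; the file does not name the gene whose UTR it is. The 3820 regions were assigned to 3322 genes, of which 2889 had 1 such region, 379 had 2 and 54 had 3 or more. Of these genes, 1737 (52.3%) also had a promoter region.

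Reads per kilobase were higher in these regions than in introns and intergenic DNA, and about the same in KO and WT. The median density over the 3820 regions was 40.1 ± 0.151 CPM per kb in KO and 40.0 ± 0.336 CPM per kb in WT (SD, n = 2 each). The density was 1.14 times that of intron regions and 1.20 times that of intergenic regions, higher in 4 of 4 libraries each (exact sign-flip test over libraries, two-sided p = 0.125, the smallest 4 libraries allow). Against promoter regions the ratio was 0.988, with 2 libraries above and 2 below, and the 2 above were the KO libraries. Peak calling chose all regions of every class, so each density describes regions that already passed as peaks.

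Among the classes, 3' UTR regions were the densest. Their median was 43.3 and 42.8 CPM per kb in KO against 42.2 and 43.2 CPM per kb in WT, above promoter regions by 1.06 times in 4 of 4 libraries (exact sign-flip p = 0.125). Internal exons had 40.6 and 40.4 CPM per kb in KO and 40.7 and 39.8 CPM per kb in WT. Last exons were lower, with 37.3 and 37.8 CPM per kb in KO and 36.8 and 38.5 CPM per kb in WT. Downstream regions had 37.9 and 38.9 CPM per kb in KO and 38.4 and 38.6 CPM per kb in WT. In each of these classes the KO and WT libraries interleaved. The 59 regions in 5' UTRs were an exception, with 39.3 and 37.3 CPM per kb in KO, both below the 40.7 and 42.1 CPM per kb in WT. Within the downstream class, the 325 regions at 2 to 3 kb also separated, with 37.32 and 37.85 CPM per kb in KO against 38.81 and 38.45 CPM per kb in WT. For such a separation an exact permutation test of 2 against 2 libraries cannot go below p = 0.333.

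**Figure D1:**
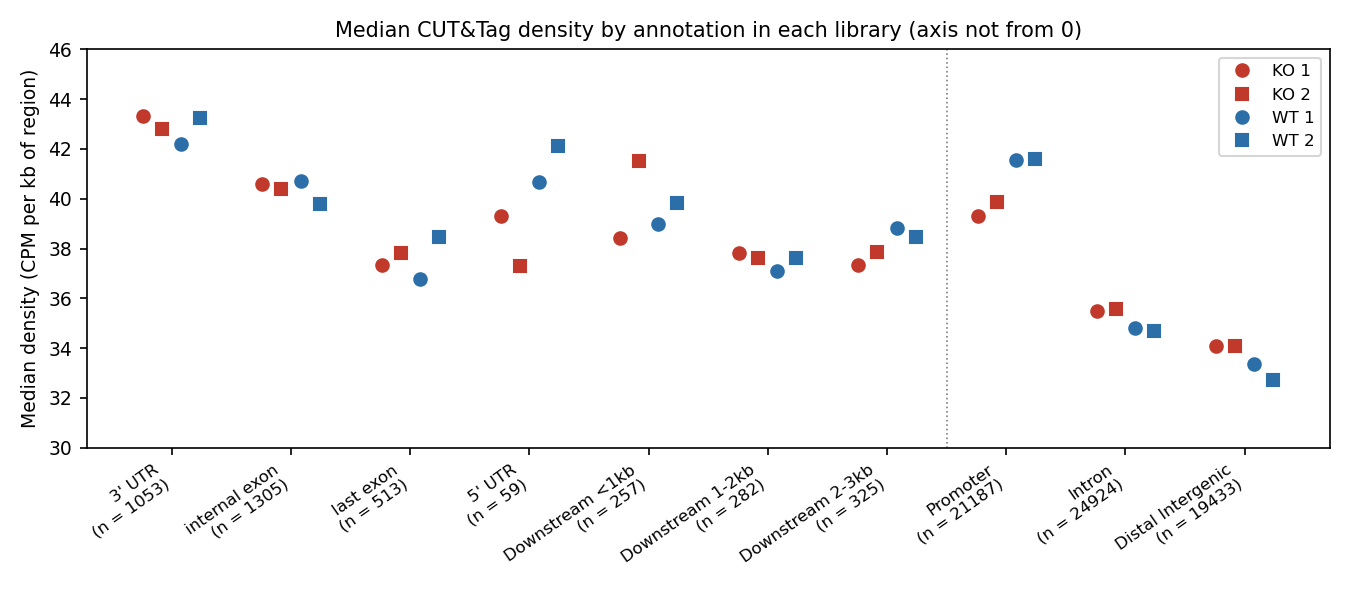
Median CUT&Tag density (CPM per kb of region, y axis) of each annotation class (x axis, with the number of regions) in the 2 KO and 2 WT libraries; each point is 1 library. The 3' UTR points lie between 42.2 and 43.3 CPM per kb, above intron and intergenic regions in every library; right of the dotted line are the classes outside this set.

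A slightly larger share of reads fell in exons and 3' UTRs in KO than in WT. Exon regions held 2.55% and 2.54% of the reads in regions in KO against 2.49% and 2.48% in WT, a difference of 0.0578 percentage points. 3' UTR regions held 1.66% and 1.65% in KO against 1.62% and 1.63% in WT, a difference of 0.0283 points. The 2 groups did not overlap in either class. Regions entered the table as peaks, and more of them were marked in KO. Exon regions were marked in 56.8% and 40.1% in KO against 27.0% and 27.9% in WT. For 3' UTR regions it was 56.6% and 40.9% in KO against 28.7% and 30.5% in WT. The shares are thus not independent of how regions were chosen, and the part of that choice was not tested. For 5' UTR regions the shares were 0.0860% and 0.0822% in KO against 0.0874% and 0.0856% in WT, and for downstream regions 1.26% and 1.28% in KO against 1.27% in each WT library. Both classes overlapped between groups, but downstream regions at 2 to 3 kb did not, with 0.417% in each KO library against 0.425% and 0.423% in WT. All 4 classes together held 5.55% in each KO library and 5.47% in each WT library, a difference of 0.0812 points. With 2 libraries a group the exact permutation test cannot go below p = 0.333, which is the value for exons, 3' UTRs and the sum. Shares of one total move together: promoter regions held 37.1% in KO and 38.0% in WT. Intron regions also held more in KO without overlap, 31.66% and 31.44% against 30.87% and 30.92% in WT. The larger share in KO was therefore not particular to exons and 3' UTRs.

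**Figure D2:**
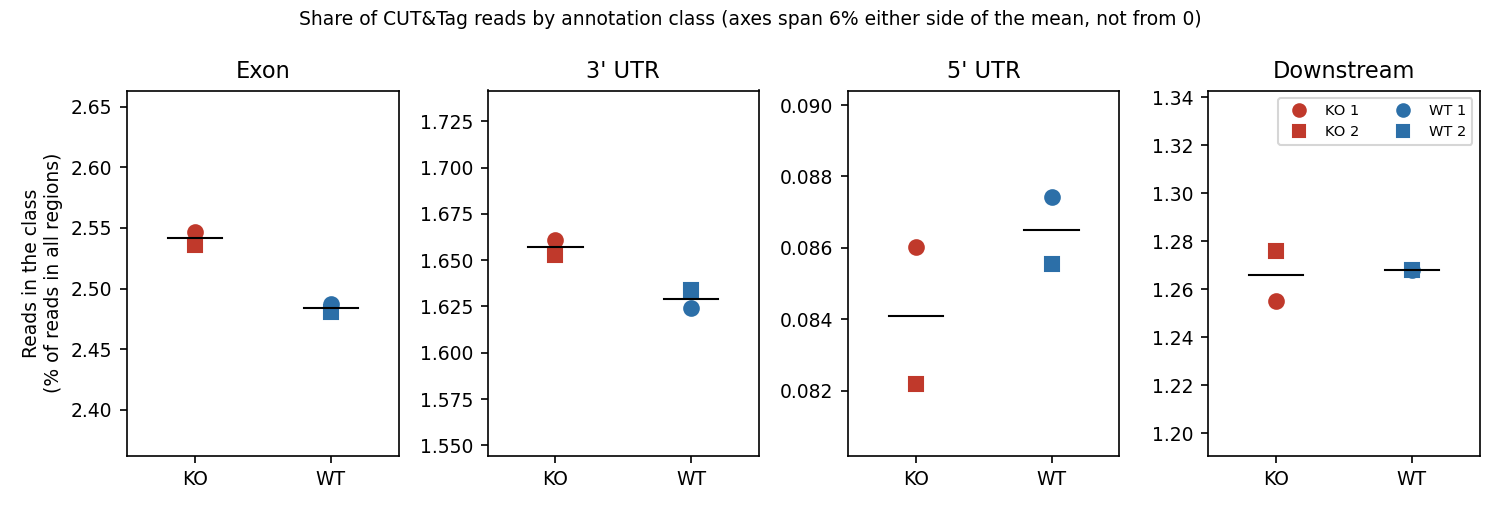
Reads in each class as a percentage of the reads in all regions (y axis, a separate scale in each panel that does not start at 0) in KO and WT; points are libraries and lines are group means. The KO points lie above the WT points for exons and 3' UTRs, and the groups overlap for 5' UTRs and downstream regions.

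The authors' peak marks were sparser in WT, the group with fewer reads in regions. A peak was marked at 2174 (56.9%) and 1595 (41.8%) of the 3820 regions in KO, against 1072 (28.1%) and 1134 (29.7%) in WT. In 2574 regions (67.4%) a single library carried the mark, against 63.5% of all regions, and in 293 (7.67%) all 4 did, against 10.0% of all regions. Both KO libraries and no WT library were marked at 215 regions (5.63%), against 5.79% of all regions. Both WT libraries and no KO library were marked at 45 (1.18%), against 1.20% of all regions. These 2 shares were near those of the whole table. The part of depth in these marks was not tested.

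No single region passed the threshold of 0.05 on the adjusted p-value. edgeR's quasi-likelihood test called 0 of 3813 tested regions, beside 0.00722% of all 69209 regions tested, and DESeq2 called 0 as well. At an unadjusted p under 0.05 there were 220 regions (5.77%), beside 5.35% of all regions, and DESeq2 had 105. Of the 220, 92 were higher in KO, beside 1.7% of all regions, and 128 were lower, beside 3.65% of all regions. With library totals in place of TMM scaling the split was 141 higher and 68 lower, so which direction has more regions depends on the scaling. The median log2 fold change was 0.03, beside 0.01 for all regions. By class, unadjusted p fell under 0.05 in 108 exon regions (45 higher, 63 lower), 65 3' UTR regions (29 higher, 36 lower), 5 5' UTR regions (3 higher, 2 lower) and 42 downstream regions (15 higher, 27 lower). Of the 3820 regions, 94 (2.46%) in the authors' deposited table have a p-value under 0.05, beside 2.34% of all regions, and every q-value is 1.

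**Figure D3:**
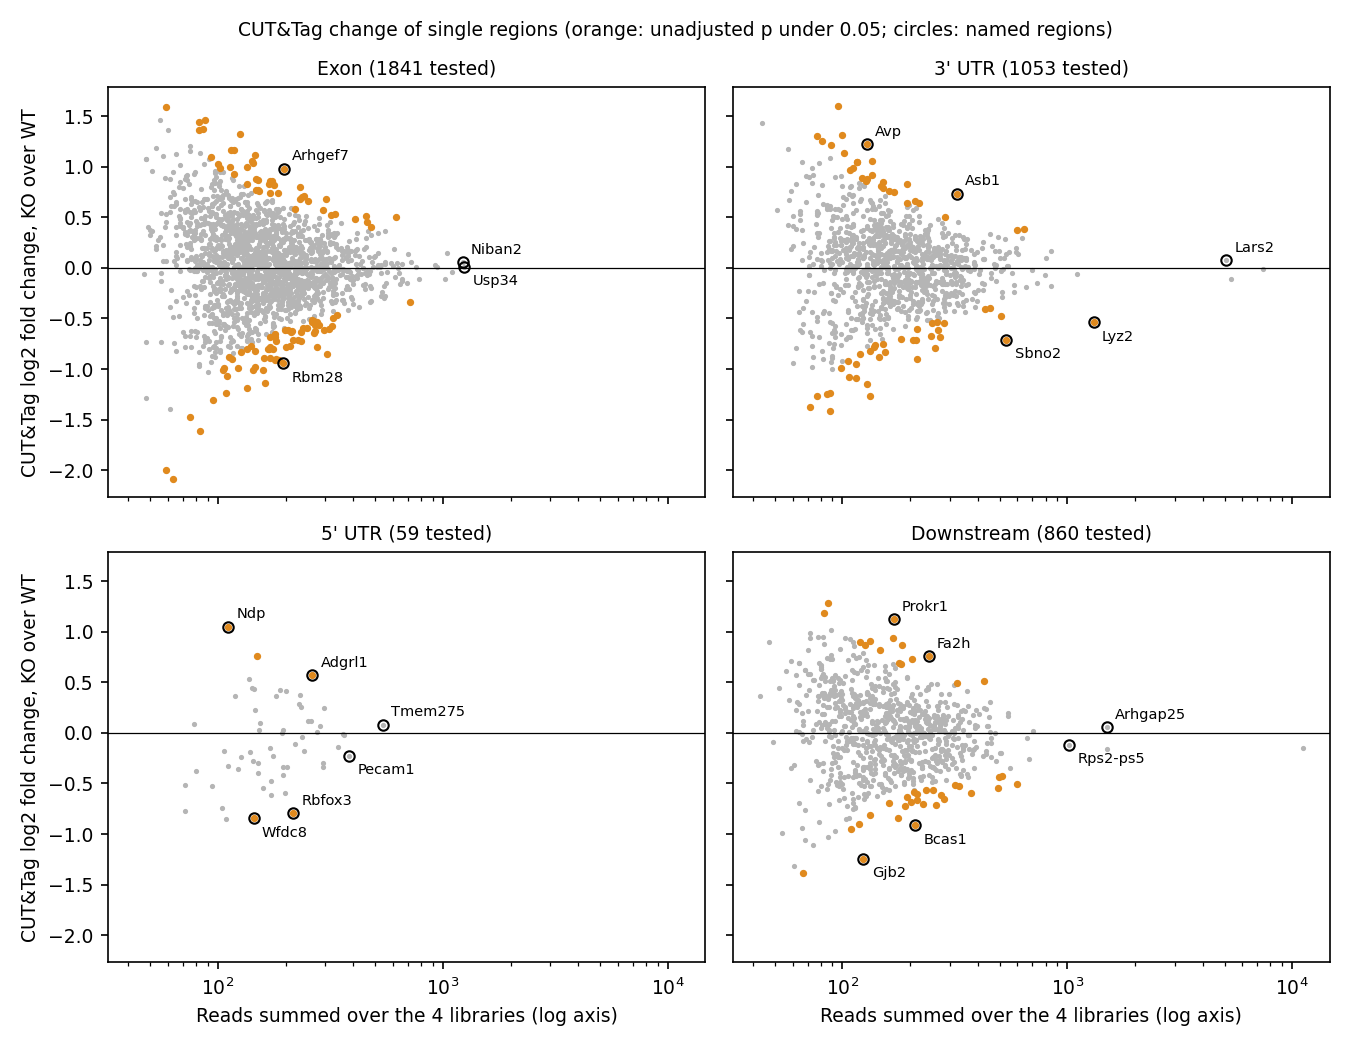
CUT&Tag log2 fold change, KO over WT (y axis), against the reads summed over the 4 libraries (x axis, log scale) for each tested region, with 1 panel a class. Orange points have an unadjusted p under 0.05 and circles mark the regions named in the text; no region passed the adjusted threshold, and the scatter narrows as reads rise.

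The strongest single regions by p-value lay in 3' UTRs and came closest to the threshold without reaching it. At Lyz2, the lysozyme gene of myeloid cells, the region chr10:117113291-117114193 (GRCm39), inside the assigned transcript and 4033 bp from its start, held 74.9 and 88.3 CPM in KO against 103 and 133 CPM in WT. Both KO libraries lay below both WT libraries (log2 fold change -0.53, SE 0.14, edgeR adjusted p = 0.276), and all 4 libraries carried a peak mark. The value was -0.34 without WT replicate 2 and -0.71 (adjusted p = 0.0554, edgeR) without WT replicate 1. Lyz2 RNA was nearly absent, at 0.544, 0.333 and 0.272 CPM in KO and 0.422, 0.740 and 0.656 CPM in WT, so this densely read region sits at a gene with almost no RNA in these cells. At Sbno2, a transcriptional coregulator, the region chr10:79906913-79907402, 3832 bp from the start, held 25.6 and 37.0 CPM in KO against 56.6 and 45.0 CPM in WT (log2 fold change -0.71, SE 0.19, edgeR adjusted p = 0.278), and without KO replicate 1 the value was -0.46. Peaks were marked there in the WT libraries alone. Sbno2 RNA did not pass the test: 42.4, 43.8 and 30.6 CPM in KO and 37.8, 21.9 and 31.7 CPM in WT (adjusted p = 0.616, edgeR).

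In the other direction, the 3' UTR region chr1:91485081-91485660, assigned to Asb1, a SOCS-box protein gene, held 31.7 and 26.1 CPM in KO against 15.5 and 19.4 CPM in WT (log2 fold change 0.73, SE 0.24, edgeR adjusted p = 0.703). It lies past the assigned transcript, 16279 bp from its start. Asb1 had 4 regions in all and they did not move together: the others had log2 fold changes of 0.68, -0.40 and -0.40. Asb1 RNA was 48.2, 48.7 and 52.0 CPM in KO and 44.1, 43.4 and 47.9 CPM in WT (adjusted p = 0.717, edgeR). The 3' UTR region chr2:130433365-130433564, assigned to Avp, the vasopressin gene, held 10.7 and 15.1 CPM in KO against 6.47 and 4.50 CPM in WT (log2 fold change 1.22, SE 0.43, edgeR adjusted p = 0.771). Avp had 0 RNA counts in all 6 libraries.

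Among exon regions, those described here by p-value lay in exons of a neighbouring gene. The last exon of the clone-named gene 1700128E19Rik (chr8:11771541-11772025), assigned to Arhgef7, an exchange factor for small GTPases, held 22.2 and 14.5 CPM in KO against 9.06 and 9.69 CPM in WT (log2 fold change 0.98, SE 0.33, edgeR adjusted p = 0.720), and without KO replicate 1 the value was 0.63. Arhgef7 RNA was 177, 159 and 158 CPM in KO and 170, 144 and 160 CPM in WT (adjusted p = 0.915, edgeR). The last exon of Prrt4 (chr6:29171236-29171494), assigned to Rbm28, a nucleolar RNA-binding protein gene, held 11.2 and 9.19 CPM in KO against 17.5 and 22.2 CPM in WT (log2 fold change -0.94, SE 0.31, edgeR adjusted p = 0.703). Rbm28 RNA was 107, 106 and 110 CPM in KO and 104, 89.8 and 106 CPM in WT.

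The 5' UTR class is small and its lowest p-values were weaker. At Ndp, which encodes the Frizzled-4 ligand norrin, the region chrX:16760637-16761014 held 9.76 and 11.9 CPM in KO against 4.53 and 5.88 CPM in WT (log2 fold change 1.05, SE 0.47, edgeR adjusted p = 0.909), and peaks were marked in both KO libraries and no WT library. Ndp RNA was 22.4, 19.6 and 25.3 CPM in KO against 16.1, 17.8 and 15.7 CPM in WT, with no overlap between groups (log2 fold change 0.44, adjusted p = 0.159, edgeR). The region assigned to Adgrl1, a latrophilin adhesion receptor gene (chr8:84641834-84642194), held 21.5 and 24.3 CPM in KO against 15.5 and 15.2 CPM in WT (log2 fold change 0.57, SE 0.27, edgeR adjusted p = 0.920). It lay -7527 bp from the assigned start (negative is upstream). For Rbfox3, the neuronal splicing factor NeuN, the assigned region chr11:118403898-118404201, at -5719 bp from the assigned start, held 11.9 and 12.2 CPM in KO against 28.5 and 13.2 CPM in WT. The difference there rests on 1 WT library: the log2 fold change of -0.79 (SE 0.29) became -0.12 without WT replicate 1 and -1.24 without WT replicate 2. The region at Wfdc8, a gene of the WAP-domain protease inhibitor family (chr2:164450676-164450941), held 8.05 and 7.71 CPM in KO against 14.2 CPM in each WT library (log2 fold change -0.85, SE 0.38, edgeR adjusted p = 0.903), and Wfdc8 RNA was 0 in all 6 libraries.

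Downstream of genes, the region at Bcas1 stands beside a change in RNA. Bcas1 marks newly forming oligodendrocytes, and its region chr2:170185796-170186245 held 11.7 and 10.7 CPM in KO against 16.8 and 25.6 CPM in WT (log2 fold change -0.91, SE 0.30, edgeR adjusted p = 0.679). Bcas1 RNA fell to 21.4, 20.8 and 15.8 CPM in KO, against 98.3, 75.3 and 79.8 CPM in WT (log2 fold change -2.13, adjusted p = 0.000568, edgeR). The region without WT replicate 2 had a log2 fold change of -0.58. At Gjb2, the connexin 26 gene, the region chr14:57334558-57334757 held 6.83 and 4.45 CPM in KO against 13.3 and 13.8 CPM in WT (log2 fold change -1.24, SE 0.42, edgeR adjusted p = 0.720). The region at Prokr1, a prokineticin receptor gene (chr6:87553717-87554181), held 12.2 and 21.6 CPM in KO against 8.73 and 6.58 CPM in WT (log2 fold change 1.12, SE 0.36, edgeR adjusted p = 0.673), and without KO replicate 2 the log2 fold change was 0.67. Prokr1 RNA ran the other way in level, at 8.996, 10.1 and 9.42 CPM in KO and 14.0, 12.2 and 13.4 CPM in WT (log2 fold change -0.48, adjusted p = 0.112, edgeR). The region at Fa2h, which hydroxylates myelin sphingolipids (chr8:112069972-112070406), held 18.3 and 26.4 CPM in KO against 10.0 and 16.3 CPM in WT (log2 fold change 0.76, SE 0.28, edgeR adjusted p = 0.800). Without KO replicate 2 the value was 0.48, without WT replicate 1 it was 0.45 and without WT replicate 2 it was 1.14. Fa2h RNA was at most 0.198 CPM in KO and 0.206 CPM in WT.

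Most of the most heavily read regions had small differences between the groups, with the Lyz2 region described above as the exception among those named. Over the 4 libraries a region held a median of 157 reads (36 to 11120). The 3 with most reads, named after their values were seen, were all assigned to the unnamed gene ENSMUSG00000095041 on an unplaced scaffold. They held 11120, 7385 and 5317 reads in all, and their log2 fold changes were -0.15, -0.01 and -0.11. Next was a 3' UTR region at Lars2, the mitochondrial leucyl-tRNA synthetase gene (chr9:123290765-123291333), with 379 and 398 CPM in KO against 359 and 376 CPM in WT (log2 fold change 0.08, SE 0.11). The Lyz2 region (log2 fold change -0.53) was the other most-read 3' UTR region named. The most-read exon regions lay in exon 59 of 80 of Usp34, a deubiquitinase gene (chr11:23401105-23402037), and in exon 23 of 25 of Lrsam1, a ubiquitin ligase gene (chr2:32818281-32819478), assigned to Niban2. The Usp34 region held 104 and 79.4 CPM in KO against 91.9 and 91.0 CPM in WT, and the Niban2 region 94.4 and 90.1 CPM in KO against 93.2 and 84.4 CPM in WT. In 5' UTRs the most-read regions were assigned to Tmem275, with 34.1 and 49.5 CPM in KO and 39.8 and 38.8 CPM in WT, and to the endothelial adhesion gene Pecam1, with 29.3 and 23.1 CPM in KO and 28.5 and 33.2 CPM in WT. Downstream, they were assigned to Arhgap25, which encodes a GTPase-activating protein, with 107 and 121 CPM in KO and 112 and 107 CPM in WT, and to the Rps2 pseudogene Rps2-ps5, with 71.2 and 74.7 CPM in KO and 72.1 and 86.2 CPM in WT. Reads at a pseudogene may be shared with its near-identical copies, so that value is uncertain. RNA of Pecam1, Tmem275, Arhgap25 and Rps2-ps5 was at most 0.208 CPM in KO and 0.380 CPM in WT.

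**Figure D4:**
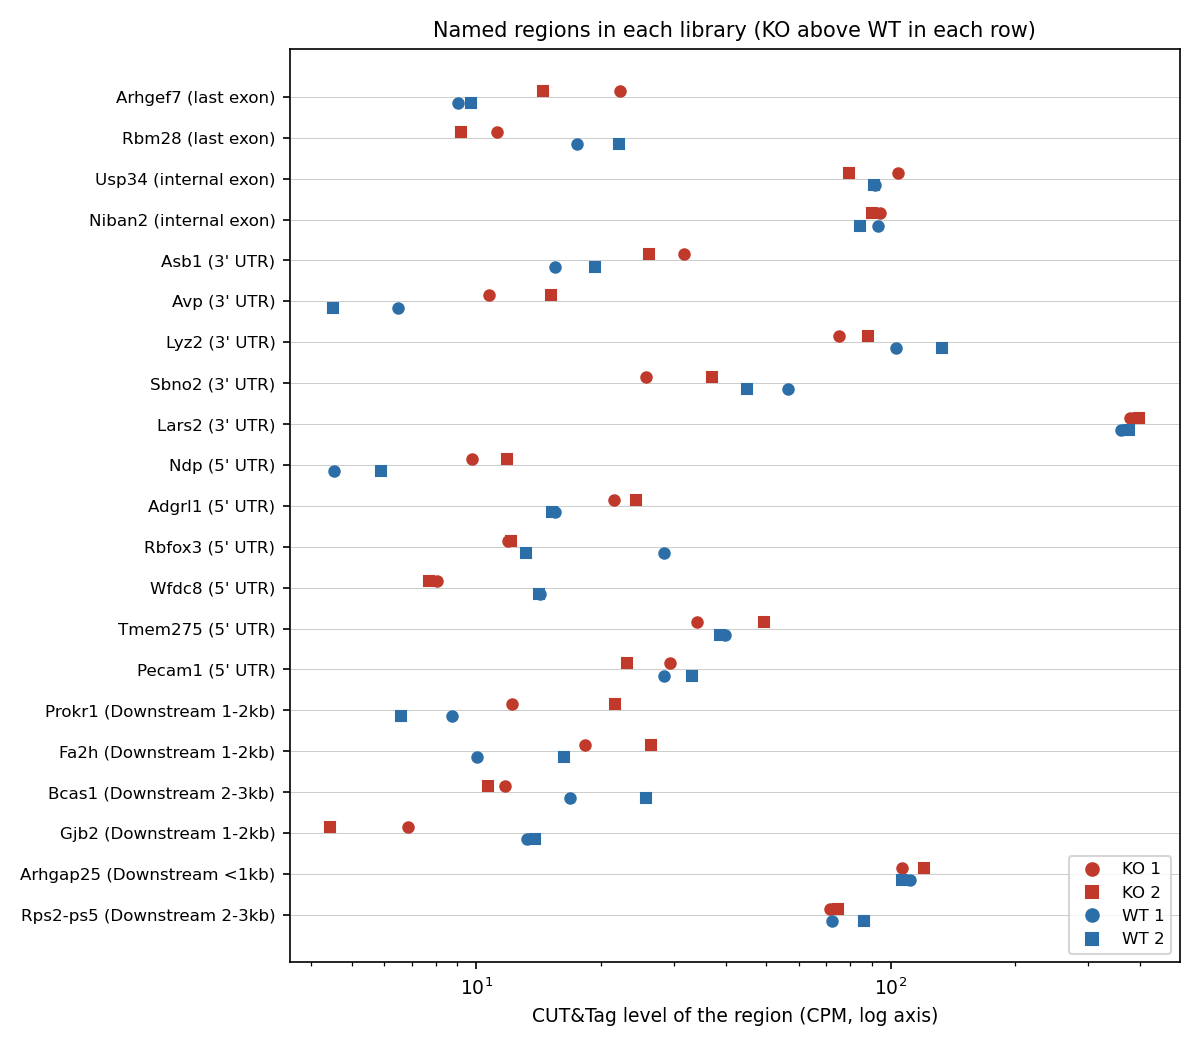
CUT&Tag level (CPM, x axis, log scale) of each named region in the 2 KO libraries (upper points of a row) and the 2 WT libraries (lower points). At Lars2, Usp34 and Niban2 the libraries lie close together, and at Rbfox3 WT 1 lies apart at 28.5 CPM.

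Genes with several regions showed whether neighbouring regions moved together. Slit1, an axon-guidance ligand, had 5 regions: 3 in its own internal exons, with log2 fold changes of 0.01, 0.16 and 0.03, and 2 adjacent ones within 1 kb downstream of a gene end, at -0.56 and 0.40. The adjacent pair thus pointed opposite ways, with 15.8 and 12.7 CPM in KO against 19.1 and 23.5 CPM in WT in the first and 8.05 and 13.9 CPM in KO against 5.82 and 10.7 CPM in WT in the second. Vwf, the von Willebrand factor, had 4 regions, all above 0 (0.59, 0.22, 0.29 and 1.30), and 3 of them lay in its own exons. Col12a1, a fibril-associated collagen, had 4, all below 0 (-0.18, -0.97, -0.23 and -0.26). Other genes with 4 regions, predicted genes left out, had mixed signs: 2 of 4 lay above 0 for Asb1 and Zfp169, 3 of 4 for Muc21 and 1 of 4 for the pseudogene Mrps36-ps2. None of these regions passed the adjusted threshold, and the genes were named for their number of regions, after values were seen. RNA of Vwf (adjusted p = 0.965), Col12a1 (adjusted p = 0.965) and Slit1 (adjusted p = 0.685) did not pass the test in edgeR either.

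RNA of the assigned genes was tested next. Of 3321 assigned genes in the RNA table, 1813 passed the count filter, and edgeR called 80 of them (38 higher and 42 lower in KO), which is 4.41% beside 3.43% of all 15298 genes tested (1.77% higher, 1.66% lower). Exon regions were assigned to 913 tested genes with 46 called (5.04%), 3' UTR regions to 638 with 25 called (3.92%), downstream regions to 343 with 14 called (4.08%) and 5' UTR regions to 39 with 1 called (2.56%). Genes with a region of any other class had 406 of 11139 called (3.64%), genes with a promoter region 3.48%, genes with an intron region 4.68% and genes with an intergenic region 5.09%, so the share of the 1813 genes lies within the range of the other classes. Taking the gene named by the exon annotation in place of the assigned one, an alternative chosen after seeing the data, gave 62 of 1097 called (5.65%). The count of 80 dropped to 26 of 1833 without KO replicate 1, 24 of 1832 without KO replicate 2 and 20 of 1841 without WT replicate 3. The share called among all genes dropped with it, to 1.15%, 1.14% and 0.931%. In bulk RNA, fewer cells of a type and less RNA per cell cannot be told apart.

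At these 80 genes the median CUT&Tag difference did not point the way of the RNA. The 38 genes with higher RNA in KO had 50 tested regions, with a median CUT&Tag log2 fold change of -0.05 and 21 above 0 (42.0%). The 42 genes with lower RNA had 47 regions, with a median of 0.08 and 28 above 0 (59.6%). Among all tested members 53.3% lay above 0. Across 2338 regions with a tested gene, Spearman's correlation between the 2 log2 fold changes was 0.005. For exon regions this correlation took the gene named by the exon annotation, and for the others the assigned gene. Many of those others lay outside the assigned transcript. The correlation is a description over regions that share the same 4 libraries and, in part, the same gene.

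Of these 97 regions, 5 (5.15%) had an unadjusted CUT&Tag p under 0.05, a share near the 5.77% of all tested members and the 5.35% of all regions, so their number is not a result about these genes. They are given as values: Bcas1, Tnc, Ptn, Frmd5 and Tnr, the last 2 named after their values were seen. Tnc encodes the matrix protein tenascin-C, and its exon 2 of 25 (chr4:63935460-63935852), inside the assigned transcript and 3110 bp from its start, held 17.6 and 14.5 CPM in KO against 9.38 and 8.30 CPM in WT (log2 fold change 0.86, SE 0.35, edgeR adjusted p = 0.876). Tnc RNA rose to 944, 978 and 944 CPM in KO, against 428, 401 and 434 CPM in WT (log2 fold change 1.18, adjusted p = 0.000568, edgeR). A 3' UTR region assigned to Ptn, the growth factor pleiotrophin, at -40341 bp from its start (negative is upstream) (chr6:36827496-36828041), held 21.5 and 13.0 CPM in KO against 22.3 and 28.7 CPM in WT (log2 fold change -0.54, SE 0.25, edgeR adjusted p = 0.913). Ptn RNA fell to 1123, 1218 and 1203 CPM in KO, against 1910, 2072 and 2026 CPM in WT (log2 fold change -0.76, adjusted p = 0.0051, edgeR).

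Frmd5 and Tnr pointed opposite ways in the 2 assays. Frmd5, a FERM-domain protein gene, had a 3' UTR region with 10.7 and 10.4 CPM in KO against 16.5 and 18.0 CPM in WT, while its RNA rose to 8.35, 7.98 and 8.52 CPM in KO, against 3.50, 3.21 and 3.20 CPM in WT (adjusted p = 0.0034, edgeR). The matrix gene Tnr, tenascin-R, had an internal-exon region with 13.7 and 13.3 CPM in KO against 5.82 and 10.0 CPM in WT. Its RNA fell to 28.3, 26.0 and 35.8 CPM in KO, against 47.6, 55.7 and 57.6 CPM in WT (adjusted p = 0.0237, edgeR).

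Among genes with higher RNA, those with the largest changes carried regions whose CUT&Tag differences did not pass the test. Sulf1, an extracellular heparan sulfate sulfatase, had RNA 6.67-fold higher in KO (log2 fold change 2.74), and its 2 downstream regions had 10.2 and 10.4 CPM in KO against 9.70 and 10.4 CPM in WT, and 18.3 and 24.6 CPM in KO against 16.8 and 19.7 CPM in WT. Thbs2, a matrix thrombospondin, had RNA 8.12-fold higher (log2 fold change 3.02), and its 2 downstream regions had log2 fold changes of -0.04 and 0.05. Six3, a forebrain homeobox gene, had RNA 9.81-fold higher (log2 fold change 3.29), beside a 3' UTR region inside its transcript (chr17:85936000-85936526) with 26.6 and 21.9 CPM in KO against 27.2 and 17.6 CPM in WT. For Anxa3, an annexin gene (RNA log2 fold change 1.57), the regions had 0.02 and -0.05, and both lay outside the assigned transcript. The first was in exon 66 of 74 of Fras1, at -24883 bp from the assigned start, and the second in a 3' UTR at -10865 bp. For Akap12, a protein kinase A scaffold (RNA 1.41), the region in its own exon 3 had -0.36. For Cacna2d3, a calcium channel subunit (RNA 1.72), they had -0.49 and 0.14. For Sox2ot (RNA 2.06) the region, in the last exon of the predicted gene Gm42695, had -0.13. Sox2ot overlaps Sox2, and the sources used here do not say how shared reads were counted.

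Among genes with lower RNA, the Bcas1 region described above (-0.91) had the largest CUT&Tag difference of the 97 regions, and the regions of the other named genes varied in size and sign. Serpinb1a, a protease inhibitor gene, had RNA of 0.890, 1.08 and 1.28 CPM in KO against 5.49, 6.37 and 5.32 CPM in WT (log2 fold change -2.39), while its downstream region had 6.83 and 12.7 CPM in KO against 7.76 and 9.34 CPM in WT. Cnpy1 (RNA log2 fold change -2.32) had a downstream region at -0.22. Otx1, a homeobox gene of the anterior brain (RNA -1.48), had a region in its own last exon at -0.41. The adenosine receptor gene Adora2b (RNA -1.17) was assigned a 3' UTR region at -0.09, which lay -27522 bp from the assigned start and outside the assigned transcript. The secreted-protein gene Ccdc80 (RNA -1.35) had a region in its own exon 7 at 0.19, and Clic5 (RNA -1.16), a chloride intracellular channel gene, one in an exon of a predicted gene at -0.70. The edgeR adjusted p of the RNA of Otx1 was 0.0073 and became 0.051 without WT replicate 3. That of Clic5 was 0.0089 and became 0.0576, 0.0528 and 0.0589 without KO replicate 1, KO replicate 2 and WT replicate 3.

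**Figure D5:**
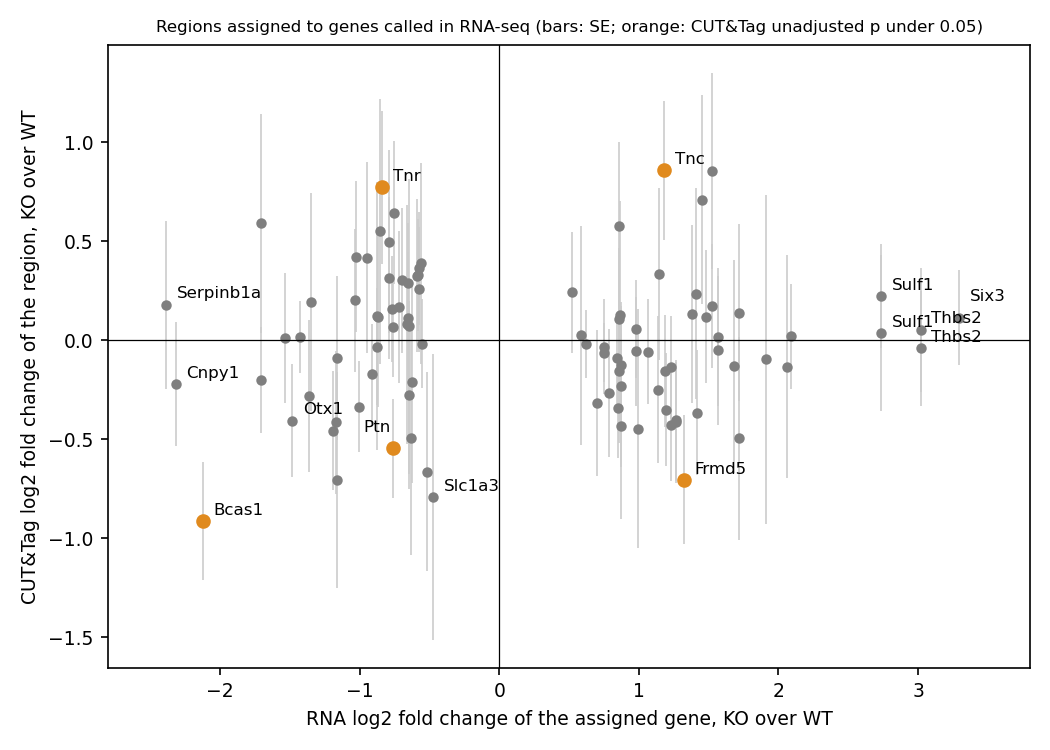
CUT&Tag log2 fold change of a region (y axis, bars are SE) against the RNA log2 fold change of its assigned gene (x axis), both KO over WT, for the regions of the 80 genes called in RNA-seq. Orange points have an unadjusted CUT&Tag p under 0.05; Sulf1, Thbs2 and Six3 lie far right and close to 0 on the y axis, and 21 of 50 regions right of 0 lie above the horizontal line.

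Region density was nearly flat against RNA level. Here the gene of an exon region was the one named by the exon annotation, and for the others the assigned gene. Only 253 of 1053 3' UTR regions and 0 of 864 downstream regions lay inside the assigned transcript. For many regions the RNA is therefore that of a gene that did not hold them. Regions whose gene failed the RNA filter had a median of 38.2 ± 0.313 CPM per kb in KO and 38.3 ± 0.320 CPM per kb in WT (SD, n = 2 each; 1478 regions). The other regions were split into 3 nearly equal parts by the WT RNA per kilobase of their gene. From the lower to the upper part the medians were 40.9, 42.1 and 41.3 CPM per kb in KO and 40.1, 41.6 and 41.4 CPM per kb in WT. Spearman's correlation of density and RNA per kilobase over 2341 regions was 0.032 in KO and 0.036 in WT, a description over regions that share libraries and, in part, genes.

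The gene lists held such regions in different numbers, which were not tested against each other. Of 24 extracellular matrix genes, 10 had one (41.7%, beside 11.8% of all genes tested in RNA), and their 13 regions had a median log2 fold change of 0.05 with 9 above 0. Of the 23 listed matrix genes tested in RNA, 6 were higher and 1 lower in KO, beside 1.77% and 1.66% of all genes, on a list chosen with earlier results of these data known. Of the 10 with a region, 4 were higher and none lower: Sulf1, Thbs2, Tnc and the laminin gene Lamb1, with 108, 111 and 93.8 CPM in KO against 72.0, 63.4 and 72.1 CPM in WT (log2 fold change 0.59, adjusted p = 0.0324, edgeR). Lamb1 is called in 1 of 6 fits with a library left out, where its adjusted p reached 0.177. None of 39 Hox genes, 58 clustered protocadherins or 85 histone genes had such a region; 6, 54 and 26 of these genes passed the RNA count filter. Of 439 zinc finger genes of the Zfp series, 25 had 35 regions, 10 of them in a last exon, with 17 of 35 above 0 and none of 21 tested genes called in RNA. Of these, Zfp503, Zfp142, Zfp592 and Zfp558 had the smallest RNA p-values and none passed (adjusted p of 0.599, 0.628, 0.664 and 0.712, edgeR).

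Among ribosomal protein genes 5 of 89 were assigned a region (Rpl31, Rpsa, Rps15a, Rpl15 and Rpl9), and no RNA was called. All 5 regions lay above 0, beside 53.3% of all tested members, with a median log2 fold change of 0.43. Those assigned to Rpl31, Rpsa, Rps15a and Rpl15 lay outside the assigned transcript, the last in an exon of Ube2e1. Ribosomal protein genes have many near-identical pseudogene copies, so their RNA counts are uncertain. Of 26 brain patterning factors, 5 had one (Barhl1, Emx1, Gbx2, Otx1 and Six3), with 3 of 6 regions above 0. Gbx2 RNA was 1.38, 2.04 and 0.778 CPM in KO and 1.90, 1.48 and 2.01 CPM in WT. Of 17 arginine methylation genes, Carm1, an arginine methyltransferase gene, was assigned one, a 3' UTR region with 12.2 and 10.7 CPM in KO against 16.2 and 12.8 CPM in WT. That region lay -3961 bp from the assigned start (negative is upstream) and outside the assigned transcript. Carm1 RNA was 92.9, 87.0 and 74.1 CPM in KO against 93.2, 75.8 and 84.7 CPM in WT.

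Of 24 neural stem and radial glia genes, 4 had a region. The glial glutamate transporter gene Slc1a3 had RNA of 1682, 1585 and 1782 CPM in KO against 2232, 2378 and 2389 CPM in WT (log2 fold change -0.47, adjusted p = 0.0402, edgeR), and this call held in 1 of 6 fits with a library left out, with an adjusted p up to 0.206. The 3' UTR region assigned to Slc1a3, outside the assigned transcript, held 2.93 and 4.15 CPM in KO against 2.26 and 10.0 CPM in WT, which overlap. The neural progenitor factor Pax6 had RNA of 23.3, 25.3 and 23.3 CPM in KO against 34.2, 31.1 and 35.2 CPM in WT (adjusted p = 0.0571, edgeR) and a downstream region with 22.2 and 19.9 CPM in KO against 25.2 and 24.9 CPM in WT. The receptor gene Notch1 had a region in exon 2 of 2 of an annotated transcript, 3610 bp from the assigned start. That region held 12.7 CPM in each KO library against 15.8 and 20.1 CPM in WT. Of 26 Notch and Wnt genes, Notch3 also had regions, 2 in its own exons, at -0.18 and -0.23, and RNA of 158, 135 and 114 CPM in KO against 114, 65.9 and 110 CPM in WT (adjusted p = 0.383, edgeR).

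The remaining cell type lists are short. The share of their genes with such a region ran from 0% (fibroblast and meningeal, erythroid) to 15% (neuron). Among all genes tested in RNA it was 11.85%. Of 13 oligodendrocyte lineage genes, Myrf, a myelin transcription factor, was assigned a 3' UTR region with 19.5 and 18.4 CPM in KO against 23.9 and 24.2 CPM in WT. That region lay -4855 bp from the assigned start and outside the assigned transcript. Myrf RNA rose to 5.93, 5.49 and 4.67 CPM in KO, against 2.95, 2.67 and 3.28 CPM in WT (adjusted p = 0.0462, edgeR). That call held in 1 of 6 fits with a library left out, with an adjusted p up to 0.220. The neuron genes Elavl3, Rbfox3 and Ncam1, the neuroblast gene Sox11 and the astrocyte gene Slc1a2 each had regions, and none of these genes was called in RNA. The same was true of the cell cycle genes Rb1, Mcm5 and E2f1. Of 9 microglial genes Lyz2 had a region and of 8 endothelial and pericyte genes Pecam1 did, while none of 8 fibroblast and meningeal and 6 erythroid genes did.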

How the data were processed

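CUT&Tag and RNA-seq libraries were grouped by the genotype and replicate in their labels. The deposited CUT&Tag table holds the authors' raw counts per merged region, RPM computed by the authors as the count plus 1 scaled to a library total, the authors' log2 fold change, p-value and q-value, peak marks, annotation, assigned gene and distance. The deposited RNA table holds expected counts per Ensembl gene, which were rounded. GRCm39, HISAT2 and StringTie are named in the submitters' processing notes; the sources used here give no peak caller, counting strand or annotation release. No sequence is printed because no genome of that build was used here.

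Both tables were fitted whole, KO against WT, with edgeR 4.0.16 (glmQLFit, robust, TMM, filterByExpr minimum count 10) in R 4.3.3, with Benjamini-Hochberg adjustment over 69209 regions or 15298 genes and a threshold of 0.05. CPM are TMM-scaled; CUT&Tag CPM are relative to reads in regions, so with no spike-in used here a gain or loss common to all regions is not measured. The SE is the fold change divided by the root of F. The common coefficient of variation between libraries beyond counting noise, estimated by edgeR, was 18.9% in CUT&Tag and 17.9% in RNA-seq. The fits were tested on simulated data. Alternatives were RLE, library totals, DESeq2 1.42.0, no filter, a filter of 1 CPM, no robust dispersion, the replicate block, each library left out, and other denominators or subsets of regions. The mitochondrial class as a covariate and the exon's own gene were chosen after seeing the data. Members and the 19 gene lists were chosen with earlier results of these data known.

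Leaving out predicted and clone-named genes, the text names, in each class, the 2 regions of smallest p higher in KO, the 2 lower, and the 2 with most reads. It names the 8 higher and the 8 lower called genes of smallest RNA p whose groups do not overlap, the 3 of largest change each way and up to 4 members of each list; most list genes are given by counts. Some regions that this rule names are not reported here.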

Additional observations from a re-analysis of the deposited data

How the results depend on the processing

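CUT&Tag calls among these regions stayed at 0 under every alternative run. The count at an unadjusted p under 0.05 was 220 and became 105 with DESeq2; with a library left out it ran from 174 to 213. The count of 80 RNA-called assigned genes became 138 with DESeq2, 236 with the mitochondrial class as a covariate (chosen after seeing the data) and 36 with the replicate block, all of the first 80 being shared in the first 2 and 36 of them in the third; with a library left out it ran from 20 to 82. Among genes with no other class of region 5 were called, and among genes with a region at least 10 kb from the start 42. Same-numbered libraries did not all deviate together (correlation 0.016 in CUT&Tag, and 0.46, -0.37 and 0.27 in RNA-seq). The highest in RNA-seq was 0.56, between KO 3 and WT 2. This check cannot decide whether the samples were paired, because with 2 CUT&Tag libraries a group every pair gives a correlation of the same size. The main fits used no pairing. Of the differences in read share, that of all 4 classes was 0.0162 points of the library total, 0.116 without the 10 most-read regions and 0.0847 in regions marked in at least 2 libraries; for exons it was 0.0086 and 0.0752, and for 3' UTRs 0.0050 and 0.0390, with the first 2 of these settings. The 5' UTR difference became 3.49e-05 against library totals. With a library left out the differences ran from 0.0798 to 0.0826 for all classes, 0.0522 to 0.0633 for exons, 0.0236 to 0.0329 for 3' UTRs, -0.0043 to -0.00047 for 5' UTRs and -0.0126 to 0.0077 for downstream regions.

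None of the results that turned sign had passed a test. With a library left out, the CUT&Tag log2 fold changes ran from -0.20 to 0.19 at Usp34, -0.012 to 0.13 at Niban2, -0.20 to 0.33 at Tmem275, -0.034 to 0.14 at Arhgap25 and -0.24 to 0.017 at Rps2-ps5, and those of RNA from -0.12 to 0.23 for Notch1, -0.20 to 0.057 for Rbfox3, -0.11 to 0.068 for Ncam1, -0.082 to 0.080 for Carm1, -0.039 to 0.16 for Rpsa, -0.055 to 0.074 for Rps15a, -0.11 to 0.17 for Rpl15 and -0.065 to 0.099 for E2f1. With the mitochondrial class as a covariate they were -0.015 for Notch1, -0.083 for Carm1, -0.051 for Rpsa, -0.011 for Rps15a, -0.13 for Rpl15 and -0.063 for E2f1. Ncam1 was 2.38e-05 with the replicate block. Carm1 was -0.0083 with DESeq2, -0.0067 with RLE, -0.0017 with a filter of 1 CPM and -0.010 with no filter. The replicate block also ended the RNA calls of Slc1a3, Myrf and Lamb1 (adjusted p = 0.110, 0.129 and 0.104, edgeR), and Myrf passed neither without a count filter nor without robust dispersion. Pax6 passed with DESeq2, the covariate and no robust dispersion, and Zfp503 with the covariate. The cause of these moves was not tested. With 2 CUT&Tag libraries a group and a median of 157 reads a region, small differences at single regions were not detectable.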
